A study of Homo sapiens with 6 samples.

Results

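The genes described here encode proteins that detect and mend damaged DNA or halt the cell cycle while this is done. They were taken as the rows of the deposited gene table whose symbol is exactly 1 of 53 listed symbols, which gave 48 genes of the 27589 rows that name a gene. A further 3 list symbols, ATRIP, XRCC1 and ERCC5, occur in the table only in rows merged with a neighbouring gene, and the last 2 list symbols are not analysed here. The libraries came from MDA-MB-231, a human triple-negative breast cancer cell line, in 3 mimic libraries (titled minic) and 3 control libraries (titled minic_nc). A mimic is a synthetic RNA made to act as a microRNA. The series title names miR-5001-5p, while the group labels give no sequence or dose for either transfection and do not say what the control cells received. The comparison asks which transcripts differ between mimic and control cells. Nothing in the labels says that the 3 libraries of a group came from separate cultures, so the p-values measure only the spread between these libraries, which may be technical.

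DNA damage is met by kinases that signal its presence and by separate repair routes for each kind of lesion. ATM answers broken ends and ATR answers exposed single-stranded DNA, and their substrate kinases CHEK2 and CHEK1 hold the cycle. Broken ends are rejoined directly or copied from a sister chromatid by homologous recombination, crosslinks are handled by the Fanconi anaemia pathway, and damaged or mispaired bases are cut out by excision and mismatch repair. Many of these genes are transcribed mainly in S phase, and loss of the recombination route is a known feature of a part of triple-negative breast cancers.

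Each library held 31643826 to 32363456 counts. Levels are given as FPKM rescaled with TMM, which corrects library totals for composition (TMM-scaled FPKM). On this scale VIM, the mesenchymal filament gene, lay between 432 and 607, AXL between 181 and 224 and CAV1 between 32.7 and 54.3 over the 6 libraries. The epithelial genes CDH1 and EPCAM stayed at or under 0.106 and 0.220, ERBB2 lay between 4.13 and 4.70, and the leukocyte gene PTPRC was at or under 0.0468, with 0 counts in 2 libraries. Row lengths also enter FPKM. For CHEK1, RAD50 and WRN the row was 2.11, 2.08 and 2.34 times as long as the exons GENCODE 29 gives the gene. Their counts may include reads from outside those exons, so their FPKM is hard to compare with that of other genes.

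All 48 genes passed the expression filter of at least 1 FPKM in at least 3 of 6 libraries. RAD51C passed through its mimic libraries only, so its entry depended on the group in which it was high. In edgeR's quasi-likelihood test with Benjamini-Hochberg adjustment over 11260 rows, 8 of the 48 genes were higher in mimic and 8 were lower. The higher share, 16.7%, stands beside 13.6% of all tested rows and the lower share, also 16.7%, beside 8.63%. In either direction the genes had 33.3% called, against 22.3% of all rows. The same shares of all rows stand beside the counts for each role group below, which holds 3 to 9 tested genes. The sizes were modest, with log2 fold changes (mimic minus control) from -0.50 to 0.68 and 0 genes changed 2-fold. Their median log2 fold change was 0.01, against -0.01 for all rows. The mimic and control libraries did not overlap for 28 of the 48 genes (58.3%), beside 42.1% of all rows. Mimic lay wholly above control in 12 of them (beside 21.8% of all rows) and wholly below in 16 (33.3%, beside 20.3%). In bulk libraries such as these, a change in the number of cells in a given state and a change in RNA per cell cannot be told apart.

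The split between higher and lower depended on scaling. With libraries scaled to their totals, 4 of the 48 genes were higher and 13 lower, beside 10.1% and 15.8% of all rows, and the share of all calls that were higher was 38.9% in place of 61.2%. The median log2 fold change of all rows was then -0.09, and that of the 48 genes -0.07. Single libraries mattered as well. The higher count was 3 without mimic replicate 1, 2 without control replicate 1 and 3 without control replicate 2 or 3. The lower count was 5 without mimic replicate 2, mimic replicate 3 or control replicate 1, and 4 without control replicate 2 or 3. ATR, RECQL, FANCD2, EXO1, RAD51D and PARP1 kept their calls in each of the 6 fits that left out 1 library, which is 12.5% of the 48 genes, beside 11.9% of all rows. The exact permutation test on any single gene cannot go below p = 0.1 with 3 against 3 libraries.

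**Figure D1:**
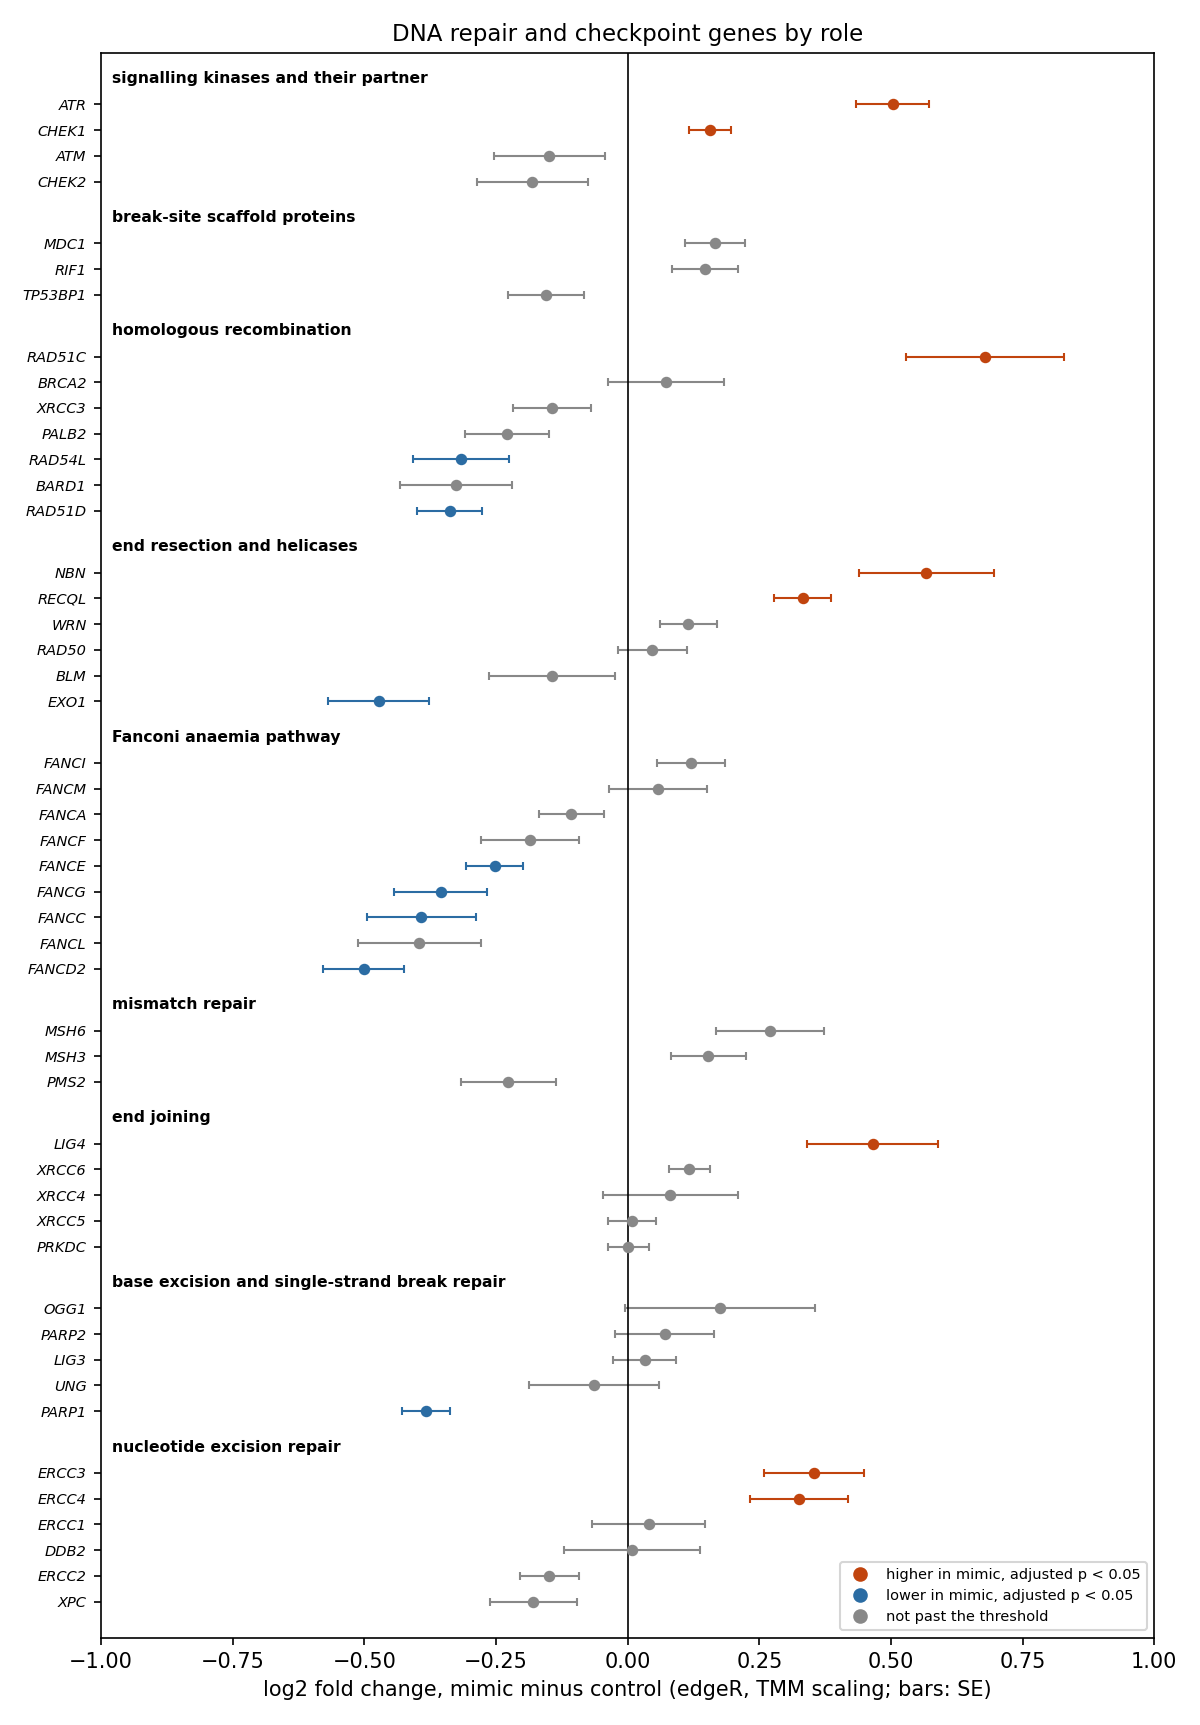
Log2 fold change (mimic minus control, x axis) of the 48 genes, grouped by role down the page, with bars for the SE. The 4 Fanconi genes past the threshold lie left of 0, and the genes past the threshold right of 0 include ATR (0.50), NBN (0.57) and RAD51C (0.68).

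Sequences are shown for the microRNA in the title and for the short 3′ UTR motifs carried by genes of the group. The mature microRNA, from RefSeq (GRCh38.p14, chr2:232550530-232550553, minus strand), has its seed, bases 2 to 8, in capitals.
hsa-miR-5001-5p: aGGGCUGGacucagcggcggagcu
The complement of that seed, CCAGCCC, was found in the annotated 3′ UTR of 7 of the 48 genes, which were ERCC2, FANCA, LIG3, MSH6, RAD50, TP53BP1 and XPC. Of these 7 genes 0 were higher and 0 lower in edgeR (MSH6 and ERCC2 had an unadjusted p under 0.05), while DESeq2 called 0 and limma called ERCC2 lower. Their median log2 fold change was -0.11. Among all single-gene rows with a 3′ UTR, 23.1% held CCAGCCC. Of those, 11.6% were higher and 13% lower (median log2 fold change -0.045), against 16.5% and 8.0% of rows without it (median 0.005). Rows with CCAGCCC also had longer 3′ UTRs, with a median of 2131 bases against 1211 bases without it. Among the 48 genes the medians were 3241 bases with it and 886 bases without it. The part of 3′ UTR length in these shares was not tested. XPC held the match at 2 places.

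An earlier scan of these same fold changes picked the heptamers AGTACAA and GTACAAA, so their occurrence in changed genes is a description and not independent evidence. They were present in the 3′ UTR of 8 of the 48 genes (16.7%), against 17.2% of all single-gene rows with a 3′ UTR. Of the 8 carriers 4 were higher and 0 lower, and of the other 40 genes 4 were higher and 8 lower. RAD51C, among the 4 higher carriers, had passed the filter through its mimic libraries only. Its place in that count thus depended on the group in which it was high. At an unadjusted p under 0.05, in DESeq2 and in limma 0 carriers were lower, and limma called 3 higher. Over all rows, 37.3% of carriers were higher and 2.60% lower, against 10.8% and 10.6% of rows without the heptamers. Carriers also had longer 3′ UTRs, with a median of 2315 bases among the 8 and 896 bases among the other 40. The sites of the 4 higher carriers are printed 5′ to 3′ from GENCODE 29 transcripts (GRCh38), with the heptamer in capitals.
ATR: ttcaattctaaAGTACAAcataaatttac
RAD51C: aatctcaaagtGTACAAAtttattgatgt
RECQL: ataaaaccagaAGTACAAttcaacaaaaa
ERCC4: ccttgttatctAGTACAAcataaataaca
The heptamers lie at chr3:142449338-142449344 for ATR (minus strand), chr17:58734244-58734250 for RAD51C, chr12:21469233-21469239 for RECQL (minus strand) and chr16:13950874-13950880 for ERCC4, which also holds GTACAAA upstream at chr16:13949700-13949706. The other four carriers were ATM, MSH3, MSH6 and TP53BP1, with log2 fold changes of -0.15, 0.15, 0.27 and -0.16.

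Promoters were read from RefSeq as 250 bases before to 50 after each start, for the 43 of 48 genes that matched by symbol. The letters TTTCGCGC, TTTGGCGC, TTTCCCGC and TTTGCCGC, forms of the site bound by E2F factors, were searched on both strands, and in MSH3 matches to the first and second of them overlap. At least 1 was present in 10 of the 43 genes (23.3%), against 6.90% of tested genes with a promoter and 4.00% of the 27305 genes with a RefSeq promoter window. Of the 7 higher genes with a promoter 0 held one, and of the 28 genes that were not called 7 did (25%). Of the 8 lower genes 3 held one (37.5%). With 7 and 8 genes, these counts are not a result by themselves. CCAAT was also searched, and 3 of the 7 higher, 20 of the 28 not called and 1 of the 8 lower genes held it. Of tested genes with a promoter, 44.2% held CCAAT. The 3 lower genes with an E2F match were EXO1, FANCC and FANCD2. Their matches are printed on the gene's strand with the motif or its complement in capitals.
EXO1: aaaggtcagccTTTCGCGCgctgtgtagg
FANCD2: cgtcgggcctgGCGGGAAAgtcgaaaact
FANCC: ttcgtcggaatTTTCCCGCgacgccgcgg
The windows are chr1:241848197-241848225 for EXO1, chr3:10026424-10026452 for FANCD2 and chr9:95317738-95317766 for FANCC (minus strand), and FANCC has another match upstream.

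Of the signalling kinases, ATR and CHEK1 were higher in mimic, and ATM and CHEK2 did not pass the test. ATR had 7.63, 7.40 and 6.89 TMM-scaled FPKM in mimic libraries, against 5.17, 5.45 and 4.86 in control libraries. ATR lies at chr3:142449235-142578826 (GRCh38, GENCODE 29, minus strand). Every mimic library lay above every control library, and the fold was 1.42 (log2 0.50 ± 0.07 SE, edgeR adjusted p = 0.00327). CHEK1, the kinase that ATR activates, had 16.2, 15.8 and 15.7 in mimic and 14.3, 14.4 and 14.0 in control. Its groups did not overlap, but the rise was small at 1.12-fold (log2 0.16 ± 0.04, adjusted p = 0.0327). The CHEK1 row was 2.11 times as long as the annotated exons, so its counts may include reads from outside them. The CHEK1 call ended with libraries scaled to their totals (adjusted p = 0.201), and of the fits that left out 1 library it held only without mimic replicate 3 (adjusted p = 0.045), with 0.0682 to 0.116 in the other five.

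ATM had 5.75, 5.53 and 4.76 in mimic and 5.15, 6.40 and 6.23 in control (log2 -0.15 ± 0.11, adjusted p = 0.354). CHEK2 had 3.92, 3.61 and 3.45 in mimic and 3.88, 4.68 and 3.89 in control (log2 -0.18 ± 0.11, adjusted p = 0.263). Both overlapped between groups. CHEK2 has unprocessed pseudogene copies whose reads could be counted with it. ATRIP, the partner that brings ATR to single-stranded DNA, was counted only in a locus merged with TREX1, with 277, 334 and 289 counts in mimic and 378, 432 and 376 in control (log2 -0.32 ± 0.12, adjusted p = 0.106).

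Of the 3 scaffold genes, whose proteins gather at broken ends, 0 passed the test (MDC1 had an unadjusted p under 0.05, and 0 passed in DESeq2 or limma). MDC1, which binds the marked histone beside a break, had 17.3, 15.6 and 17.5 in mimic and 14.8, 15.02 and 15.1 in control. Its groups did not overlap (log2 0.17 ± 0.06, adjusted p = 0.0793), and it passed without mimic replicate 2 (log2 0.21, adjusted p = 0.0303). TP53BP1, which shields ends from resection, had -0.16 ± 0.07 (adjusted p = 0.17). RIF1, its effector, had 0.15 ± 0.06 (adjusted p = 0.143) and passed without mimic replicate 3 (log2 0.21, adjusted p = 0.0377). TP53BP1 shares 28.7% of its exon bases with TUBGCP4 on the other strand, which was itself higher (log2 0.36 ± 0.07, adjusted p = 0.0104), and strandedness is not given in the sources used here.

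**Figure D2:**
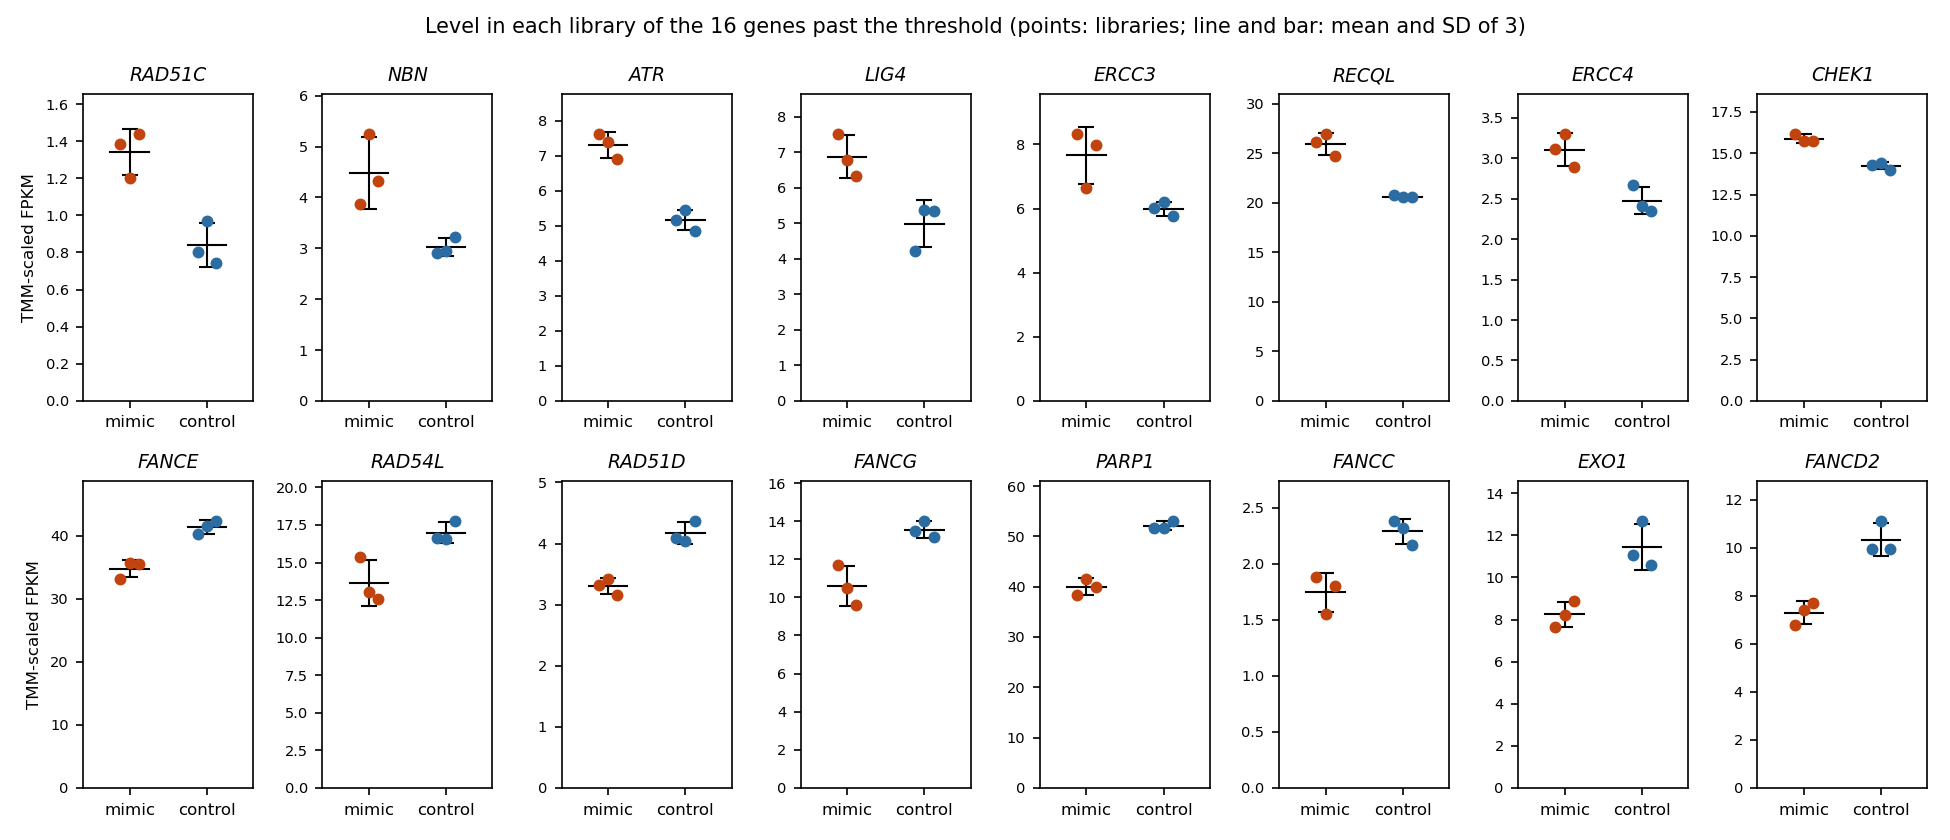
TMM-scaled FPKM (y axis, from 0) in each library for the 16 genes past the threshold, mimic left and control right, with the mean and SD of 3 libraries. In each panel the mimic points lie wholly above or wholly below the control points, as in ERCC3, where the lowest mimic value is 6.65 and the highest control value 6.202.

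Of the 7 homologous recombination genes 1 was higher, 2 were lower and 4 did not pass the test. RAD51C, which helps load the strand exchange machinery onto resected DNA, had 1.38, 1.20 and 1.44 TMM-scaled FPKM in mimic, against 0.801, 0.971 and 0.744 in control. It had the lowest level of the 48 genes in control libraries, 257, 221 and 265 counts in mimic and 158, 189 and 143 in control, and the fold was 1.599 (log2 0.68 ± 0.15, adjusted p = 0.0195). The call held with no filter on low values (adjusted p = 0.0247). It ended without mimic replicate 1 (0.0526), mimic replicate 3 (0.0538), control replicate 1 (0.0671) and control replicate 3 (0.0678).

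RAD51D, which works in a complex with RAD51C, had 3.33, 3.42 and 3.16 in mimic and 4.10, 4.04 and 4.38 in control, a fall of 1.26-fold (log2 -0.34 ± 0.06, adjusted p = 0.0101). The gene lies at chr17:35092208-35121522 (minus strand), and its groups did not overlap. Its row was 1.75 times as long as the annotated exons, and it shares 8.01% of its exon bases with the RAD51L3-RFFL readthrough gene. RAD54L, a motor protein that helps strand invasion of the template, had 15.4, 13.01 and 12.6 in mimic and 16.6, 16.6 and 17.8 in control (log2 -0.32 ± 0.09, adjusted p = 0.0485). RAD54L sat just inside the threshold and held only without mimic replicate 1 (adjusted p = 0.0187) among the fits without 1 library, with 0.0963 to 0.136 in the other five. It shares 25.1% of its exon bases with LRRC41 on the other strand (log2 0.24 ± 0.08, adjusted p = 0.0626).

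BRCA2, a mediator of homologous recombination, had 5.68, 6.80 and 5.76 in mimic and 6.57, 5.29 and 5.50 in control. Its groups overlapped (log2 0.07 ± 0.11, adjusted p = 0.679), and the sign turned with libraries scaled to their totals (-0.01). PALB2, which binds BRCA2, had 5.80, 5.43 and 5.08 in mimic and 6.54, 6.27 and 6.31 in control (log2 -0.23 ± 0.08, adjusted p = 0.0848). BARD1, a ubiquitin ligase subunit, averaged 4.99 ± 0.645 in mimic and 6.26 ± 0.232 in control (SD, n = 3 each; log2 -0.33 ± 0.11, edgeR adjusted p = 0.0702). PALB2 and BARD1 did not overlap between groups, and both passed with libraries scaled to their totals (0.0356 and 0.036). In DESeq2 BARD1 passed (adjusted p = 0.0409) and PALB2 did not (0.08). XRCC3, which binds RAD51C, did not pass (log2 -0.14 ± 0.07, adjusted p = 0.214), and 76.7% of its exon bases lie opposite KLC1, which was higher (log2 0.28 ± 0.07, adjusted p = 0.0283).

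Among the resection and helicase genes NBN and RECQL were higher and EXO1 was lower. NBN, the subunit of the MRE11-RAD50-NBN break sensor that recruits ATM, had 3.87, 5.26 and 4.32 in mimic and 2.91, 2.94 and 3.22 in control. The lowest mimic library stood above the highest control library, with a fold of 1.48 (log2 0.57 ± 0.13, adjusted p = 0.021), and the call ended without control replicate 1 (0.0695) and control replicate 2 (0.0694). RAD50, its partner, had 2.83, 2.74 and 2.78 in mimic and 2.87, 2.63 and 2.58 in control (log2 0.05 ± 0.06, adjusted p = 0.644), and 79.7% of its exon bases are shared with AC116366.3 on the same strand.

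EXO1, the exonuclease that lengthens the resected strand and also serves mismatch repair, had 7.65, 8.21 and 8.87 in mimic and 11.04, 12.7 and 10.6 in control. It lies at chr1:241847967-241895148 and fell 1.39-fold (log2 -0.47 ± 0.10, adjusted p = 0.0142), with no overlap. RECQL, a RecQ family helicase and the highest of this subgroup, had 26.1, 27.0 and 24.8 in mimic and 20.7, 20.5 and 20.6 in control. It lies at chr12:21468911-21501669 (minus strand), and its rise was 1.26-fold (log2 0.33 ± 0.06, adjusted p = 0.00714). RECQL shares 41.5% of its exon bases with PYROXD1 on the other strand (log2 0.40 ± 0.20, adjusted p = 0.196), which averaged 423.5 counts. The related helicase genes BLM and WRN had log2 fold changes of -0.14 ± 0.12 and 0.12 ± 0.05 and did not pass (adjusted p = 0.428 and 0.176).

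The Fanconi anaemia pathway held 4 of the 8 lower genes. Of its 9 genes 4 were lower (beside 8.63% of all rows) and 0 higher (beside 13.6%), with a median log2 fold change of -0.25. Also 0 were higher at an unadjusted p under 0.05, in DESeq2 or in limma. With 9 genes, a count of 0 higher is not a result by itself. FANCD2, which is ubiquitinated as a pair with FANCI to start crosslink repair, had 6.78, 7.42 and 7.72 in mimic and 9.95, 11.1 and 9.93 in control. It lies at chr3:10026414-10101930 and fell 1.42-fold (log2 -0.50 ± 0.08, adjusted p = 0.00537), the lowest log2 fold change of the 48 genes. FANCD2 has a pseudogene copy, FANCD2P2, to which the table assigns 19 counts over the 6 libraries. FANCI averaged 25.96 ± 1.18 in mimic and 23.9 ± 1.64 in control (SD, n = 3 each), with overlap (log2 0.12 ± 0.07, edgeR adjusted p = 0.232).

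The other lower genes encode subunits of the Fanconi core complex, the ligase that modifies FANCD2 and FANCI. FANCE, which binds FANCD2 directly, was the most abundant Fanconi gene, with 33.2, 35.6 and 35.5 in mimic and 40.2, 41.6 and 42.4 in control (log2 -0.25 ± 0.05, adjusted p = 0.0173). FANCG had 11.7, 10.48 and 9.58 in mimic and 13.5, 14.0 and 13.1 in control (log2 -0.36 ± 0.09, adjusted p = 0.0292). FANCC had 1.88, 1.55 and 1.80 in mimic and 2.39, 2.32 and 2.17 in control (log2 -0.39 ± 0.10, adjusted p = 0.0364). FANCE, FANCG and FANCC were each apart between groups, yet each call rested on particular libraries. FANCE lost its call without mimic replicate 1 (0.0508), control replicate 2 (0.0558) and control replicate 3 (0.0691). FANCG and FANCC each kept it only without mimic replicate 1 (0.0217 and 0.0442), while the other five fits gave at most 0.0909 and 0.107. FANCE, FANCG and FANCC also lost it with no filter on low values (0.0583, 0.051 and 0.0775).

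FANCL, the catalytic subunit of the core ligase, lay just outside the threshold. It averaged 5.13 ± 0.554 in mimic and 6.75 ± 0.479 in control (SD, n = 3 each; log2 -0.40 ± 0.12, edgeR adjusted p = 0.0523), and it passed in DESeq2 (0.0217) and under scaling to library totals (0.0252). FANCA and FANCF, further core subunits, had log2 fold changes of -0.11 ± 0.06 and -0.18 ± 0.09, and FANCM, which anchors the complex to DNA, had 0.06 ± 0.09. These 3 genes had adjusted p from 0.204 to 0.694.

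Of 3 mismatch repair genes 0 passed the test (MSH6 and PMS2 had an unadjusted p under 0.05, 0 passed in DESeq2, and PMS2 passed in limma). MSH6 and MSH3 encode proteins that bind mispaired bases and small loops. MSH6 had 12.01, 13.7 and 10.97 in mimic and 9.24, 11.1 and 10.1 in control, with overlap (log2 0.27 ± 0.10, adjusted p = 0.103). MSH3 averaged 8.05 ± 0.461 in mimic and 7.24 ± 0.084 in control (SD, n = 3 each; log2 0.15 ± 0.07, edgeR adjusted p = 0.171). PMS2, the nuclease subunit that nicks the strand, passed (log2 -0.23 ± 0.09, adjusted p = 0.119 with TMM) only where libraries had no composition correction, as under scaling to library totals (0.0436). PMS2 has many near-identical pseudogenes, of which PMS2P3 had 649 counts over the 6 libraries, so its value is uncertain.

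End joining held the most abundant genes, which differed little between groups, and 1 gene that was higher. XRCC6, which encodes Ku70, had 276.9, 292 and 284 TMM-scaled FPKM in mimic and 257, 265 and 264 in control (log2 0.12 ± 0.04, adjusted p = 0.0734). XRCC6 did not overlap between groups and had an unadjusted edgeR p of 0.02. XRCC5, which encodes its partner Ku80, averaged 116 ± 4.61 in mimic and 116 ± 2.46 in control. PRKDC, which encodes the kinase that Ku recruits, averaged 72.6 ± 2.25 in mimic and 72.6 ± 0.563 in control (SD, n = 3 each; log2 0.00 ± 0.04, edgeR adjusted p = 0.991). The signs of the XRCC5 and PRKDC values turned under other scalings. LIG4, the ligase that seals the joined ends, had 7.53, 6.77 and 6.35 in mimic and 4.22, 5.39 and 5.35 in control, 1.38-fold higher (log2 0.46 ± 0.12, adjusted p = 0.0376). Its call ended with libraries scaled to their totals (0.061) and held only without mimic replicate 3 (0.0452) among the fits without 1 library, with 0.0612 to 0.0996 in the other five. XRCC4, which holds LIG4, had 0.08 ± 0.13 (adjusted p = 0.691).

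In base excision and single-strand break repair PARP1 was lower and the other 4 genes did not pass. PARP1, which senses nicked DNA and is the target of PARP inhibitors, had 38.3, 41.6 and 40.0 in mimic and 51.7, 51.6 and 53.1 in control. PARP1 lies at chr1:226360691-226408079 (minus strand), and its groups did not overlap. The drop was 1.30-fold (log2 -0.38 ± 0.05, adjusted p = 0.00171), the smallest adjusted p of the 48 genes, and the call held in every fit listed in the plot of adjusted p by fit. PARP2, the related enzyme, had 8.06, 6.66 and 7.12 in mimic and 7.25, 6.78 and 6.78 in control (log2 0.07 ± 0.09, adjusted p = 0.632). LIG3, the ligase of this route, had 0.03 ± 0.06, and OGG1 and UNG, which remove oxidised guanine and uracil, had 0.18 ± 0.18 and -0.06 ± 0.12. OGG1 shares exon bases with CAMK1 (24.96%) and with TADA3 (4.08%) on the other strand. TADA3 was higher (log2 0.87 ± 0.07, adjusted p = 0.000304) and averaged 3423.5 counts. XRCC1, the scaffold of this route, was counted only in a locus merged with IRGQ (log2 -0.10 ± 0.06, adjusted p = 0.275).

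Of 6 nucleotide excision repair genes 2 were higher and 0 lower (ERCC2 was lower at an unadjusted p under 0.05 and in limma, and 0 were lower in DESeq2). ERCC3, a helicase of the repair and transcription factor TFIIH, had 8.34, 6.65 and 7.98 in mimic and 6.03, 6.202 and 5.75 in control (log2 0.35 ± 0.09, adjusted p = 0.0387). ERCC4, the nuclease that cuts beside the lesion, had 3.12, 3.31 and 2.90 in mimic and 2.67, 2.41 and 2.35 in control (log2 0.33 ± 0.09, adjusted p = 0.0475). Both stood apart between groups by a narrow margin. Both ended with libraries scaled to their totals (0.0749 and 0.0991), ERCC3 held only without mimic replicate 2 (0.0123) and ERCC4 only without mimic replicate 3 (0.0495), while the other fits gave at most 0.115 and 0.14. ERCC4 shares 25.7% of its exon bases with the antisense gene AC010401.1, which averaged 47.7 counts.

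ERCC2, the other TFIIH helicase, had 16.7, 16.6 and 17.8 in mimic and 19.1, 19.6 and 18.0 in control. Its groups did not overlap (log2 -0.15 ± 0.06, adjusted p = 0.103), and it passed under scaling to library totals (0.0241). ERCC1, the partner of ERCC4, had 0.04 ± 0.11 (adjusted p = 0.823), with 28.6% of its exon bases opposite CD3EAP, which was higher (log2 0.66 ± 0.13, adjusted p = 0.0118). The damage recognition genes XPC and DDB2 had -0.18 ± 0.08 and 0.01 ± 0.13. XPC lies partly opposite LSM3 (6.63% of its exon bases), which rose (log2 1.74 ± 0.08, adjusted p = 6.2e-05). ERCC5, a nuclease of the same route, was counted only in a locus merged with BIVM (log2 -0.17 ± 0.09, adjusted p = 0.216).

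**Figure D3:**
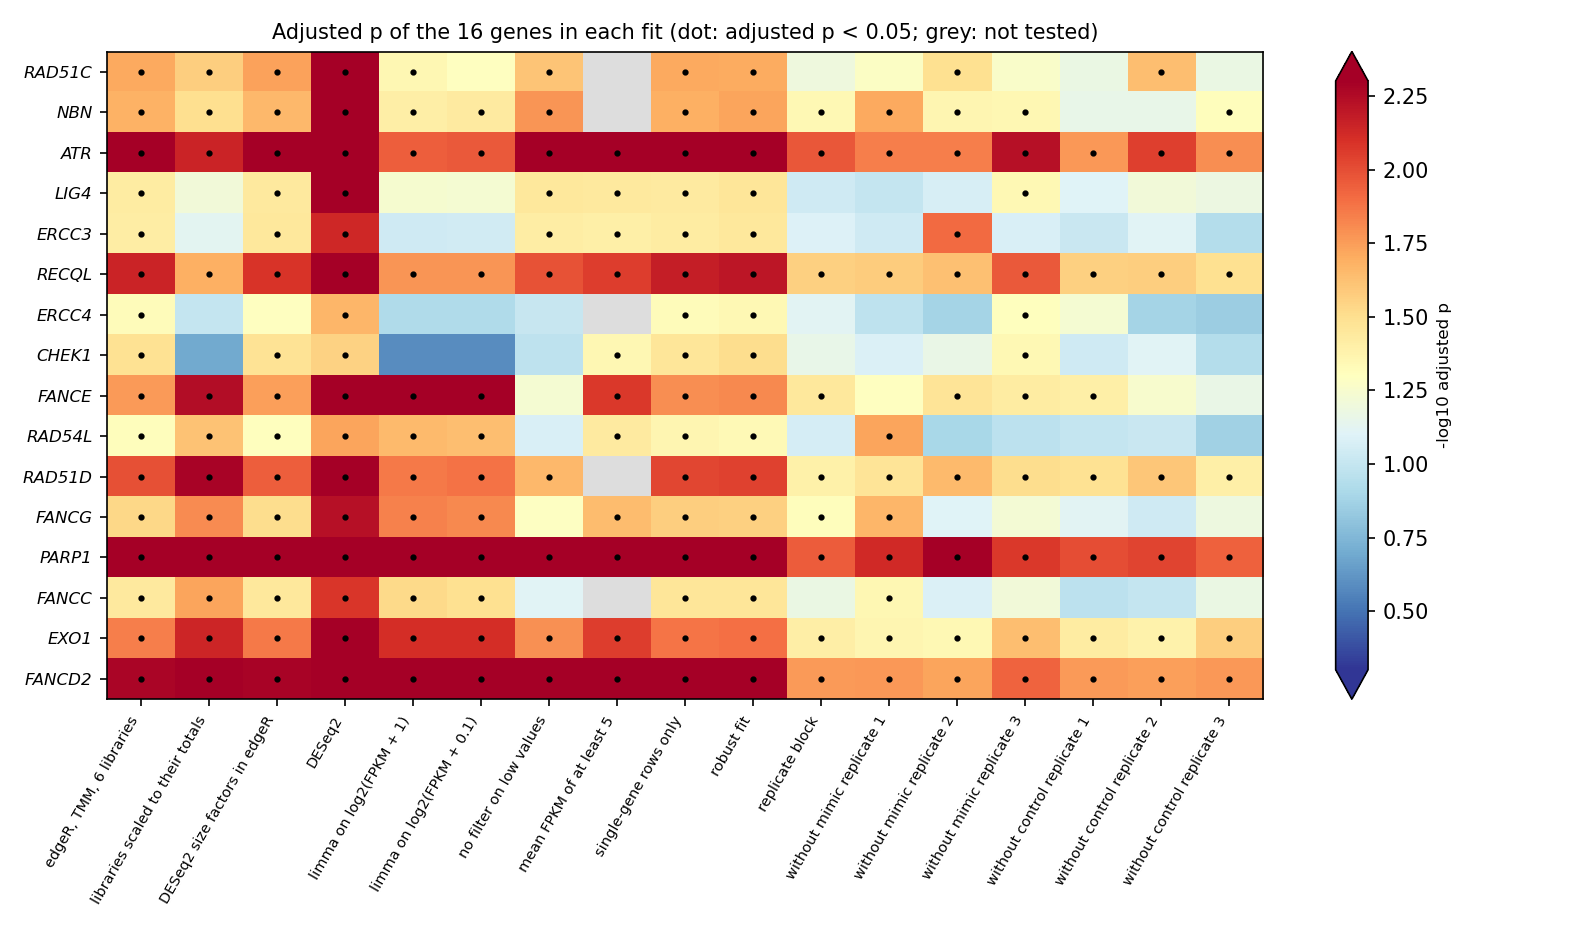
Adjusted p (colour, −log10) of the 16 genes in each fit, with a dot where it is under 0.05 and grey where the gene was below that fit's filter. The FANCD2, EXO1, RECQL, ATR and PARP1 lines carry a dot in every fit, while those of ERCC4 and CHEK1 lose it in most fits without 1 library.

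Ratios of partner genes within a library do not depend on how libraries are scaled, and 15 pairs were compared, chosen from known complexes after the values had been seen. Mimic and control libraries did not overlap in 10 of the 15 ratios. For these, the exact two-sided permutation test returned its floor, p = 0.1, or 0.15 after Benjamini-Hochberg adjustment over the pairs. Those values restate the separation and, with pairs picked on known values, cannot decide whether partner ratios differ more than others. No other pairs were compared, so no share stands beside 10 of 15. Among single rows, 42.1% did not overlap between groups. RAD51C, used in some ratios, had passed the filter through its mimic libraries only. The RAD51C to RAD51D ratio of FPKM was 0.415, 0.352 and 0.456 in mimic and 0.195, 0.240 and 0.170 in control, a 2.03-fold difference. The ATR to ATM ratio was 1.33, 1.34 and 1.45 in mimic and 1.00, 0.851 and 0.780 in control (1.57-fold). FANCD2 stood to FANCI as 0.265, 0.272 and 0.309 in mimic and 0.405, 0.506 and 0.396 in control (1.54-fold lower).

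RAD51C stood to XRCC3 as 0.453, 0.422 and 0.484 in mimic and 0.236, 0.301 and 0.232 in control (1.77-fold). Several of these ratios share a gene and so are not independent. XRCC3 has 76.7% of its exon bases opposite KLC1, and RAD50 shares 79.7% of its own with AC116366.3 on the same strand. RAD51D shares 8.01% of its exon bases with RAD51L3-RFFL on the same strand, and its row was 1.755 times as long as the annotated exons. The ratios with XRCC3, RAD50 or RAD51D may therefore hold reads of another gene. NBN to RAD50 averaged 1.61 ± 0.28 in mimic and 1.13 ± 0.12 in control (SD, n = 3 each), and ERCC3 to ERCC2 averaged 0.450 ± 0.050 in mimic and 0.318 ± 0.0017 in control. PARP1 to PARP2 averaged 5.54 ± 0.75 in mimic and 7.53 ± 0.36 in control. XRCC6 to XRCC5, the Ku pair, averaged 2.44 ± 0.073 in mimic and 2.26 ± 0.016 in control, a difference of 1.08-fold. The ratios of LIG4 to XRCC4, ERCC4 to ERCC1, PALB2 to BRCA2, MSH6 to MSH3 and FANCC to FANCE overlapped between groups (exact p = 0.2 to 0.4).

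**Figure D4:**
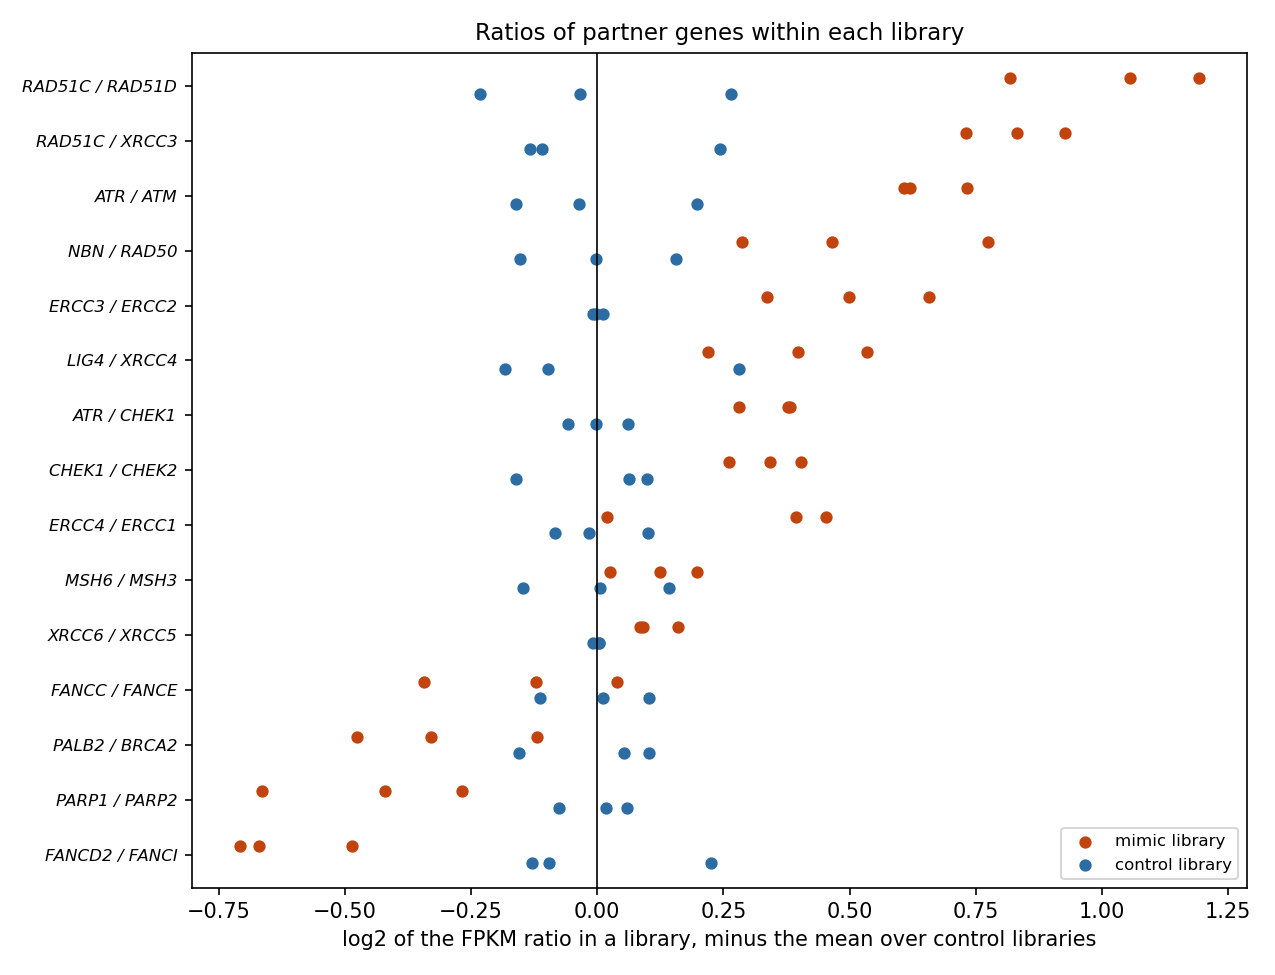
Log2 ratio of FPKM of 15 partner pairs in each library, set to 0 at the mean of the control libraries (x axis), with mimic above control in each line. RAD51C over RAD51D and ATR over ATM lie right of their control libraries in all 3 mimic libraries, and FANCD2 over FANCI lies left.

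A wider list of repair genes outside the 48 had 101 tested members. Of these 10 were higher (9.90%, beside 13.6% of all rows) and 16 lower (15.8%, beside 8.63%), with a median log2 fold change of -0.06, and 29 were lower with libraries scaled to their totals. The genes named here from this list include partners of the genes above. RMI2, which works with BLM, fell 1.91-fold, to 3.58 ± 0.226 in mimic against 6.83 ± 0.165 in control (adjusted p = 0.000943). RAD23B, the partner of XPC, and RPA2, a subunit of the protein that coats single-stranded DNA, rose 1.61-fold and 1.75-fold. USP1, which removes ubiquitin from FANCD2, averaged 50.2 ± 1.85 in mimic and 38.4 ± 0.664 in control (log2 0.39 ± 0.05, edgeR adjusted p = 0.00171). USP1 was picked after its value was seen.

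Cell cycle genes were counted in the same libraries, and their part in the repair gene values was not tested. Of 37 S phase and replication genes 12 were lower (32.4%, beside 8.63% of all rows) and 5 higher (13.5%, beside 13.6%), with a median log2 fold change of -0.19. The higher count was 3 without mimic replicate 2, control replicate 2 or control replicate 3, and 3 with libraries scaled to their totals. From this list RFC5, POLA1, ASF1B and RFC1 had the smallest p. The clamp loader genes RFC5 and RFC1 and the polymerase gene POLA1 rose (log2 0.96, 0.60 and 0.89). The histone chaperone gene ASF1B fell (-0.60). Another clamp loader gene, RFC4, was lower (log2 -0.23 ± 0.06, edgeR adjusted p = 0.0308), and RFC2 did not pass (-0.38 ± 0.14, adjusted p = 0.0954). RFC4 and RFC2 were named after their values were seen. Of 33 G2/M genes 24 were higher (72.7%, beside 13.6% of all rows) and 0 lower (0 at an unadjusted p under 0.05, in limma or in DESeq2), with a median of 0.51. The 4 with the smallest p were CCNA2 (4.54-fold), TOP2A (2.71-fold), PBK (2.79-fold) and CKS2 (2.34-fold).

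Of 14 tested target genes of the damage response 2 were higher (14.3%, beside 13.6% of all rows), the growth arrest genes GADD45A (1.41-fold) and GADD45B (1.38-fold), and 3 were lower (21.4%, beside 8.63%), PLK2 (log2 -0.66 ± 0.12), FDXR (-0.54 ± 0.12) and BAX (-0.45 ± 0.12), the last named after its value was seen. The lower count was 1 without mimic replicate 1, mimic replicate 2 or control replicate 1.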

How the data were processed

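The 6 libraries were made from polyadenylated RNA of MDA-MB-231 cells. The submitters' processing notes list cutadapt 1.9, FastQC and the builds GRCh38 and hg38. For the aligner, the counter, the annotation release and strandedness, these were not given in the sources used here. The deposited table holds raw counts per row and the authors' FPKM, which equal the count divided by a whole-number row length and the library total (within 5.8e-10 of a whole length). Of 66381 rows, 38792 name no gene, and these held 2.46 to 2.70% of counts and stayed out of library sizes and tests.

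Counts were tested with edgeR 4.0.16 (glmQLFit, glmQLFTest, TMM, R 4.3.3), two-sided, on rows with at least 1 deposited FPKM in at least 3 libraries, at a Benjamini-Hochberg adjusted p under 0.05. SE is the absolute log2 fold change over the square root of F. The common biological coefficient of variation was 14%. TMM-scaled FPKM divides counts by row length and effective library size. A chi-square statistic over its degrees of freedom was 21.3 or more for each pair of libraries, so none was a repeat deposit. Alternatives used limma 3.58.1 on log2(FPKM + 1) and log2(FPKM + 0.1), DESeq2 1.42.0, other scalings and filters, a replicate block, and fits without 1 library.

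The members and lists were chosen with earlier results of these data known. Named genes are all members and, from other lists, up to 4 with the smallest p, besides those said to be picked later. Some results are not reported here. 3′ UTRs are those of the basic protein-coding GENCODE 29 transcript with the longest 3′ UTR. Python 3.11.15, pandas 2.3.3, scipy 1.17.1 and matplotlib 3.10.9 were used.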

Additional observations from a re-analysis of the deposited data

How the results depend on the processing

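For the robust fit all 48 genes, and for DESeq2 46, DESeq2 size factors in edgeR 46 and single-gene rows 47 of them, kept their direction and their side of the threshold. That number was 30 with libraries scaled to their totals, 30 and 29 in limma on log2(FPKM + 1) and log2(FPKM + 0.1), 42 with no filter on low values, and 36 to 40 in the fits without 1 library. Totals and limma use no composition correction; there the repair genes gave 4 (totals), 4 (limma + 1) and 3 (limma + 0.1) higher and 13 lower in each, all rows gave 1783, 1707 and 1680 lower (972 with TMM), the wider repair list gave 29, 28 and 28 lower, and the S phase list gave 3 higher in each. No filter on low values gave 4 lower repair genes, and a mean FPKM of at least 5, where fewer genes are tested, gave 5 higher. Without 1 library, counts ranged from 2 to 7 (repair genes higher), 4 to 7 (repair genes lower), 503 to 854 (all rows lower), 3 to 5 (S phase higher) and 1 to 3 (damage targets lower); the cause was not tested.

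Signs turned for genes that did not pass the test. With totals the log2 fold changes were BRCA2 -0.007, RAD50 -0.032, FANCM -0.02, XRCC5 -0.071, PRKDC -0.078, LIG3 -0.047, PARP2 -0.008, ERCC1 -0.04 and DDB2 -0.071. In limma + 1 these genes gave, in the same order, -0.003, -0.021, -0.015, -0.069, -0.076, -0.037, -0.009, -0.036 and -0.048, and in limma + 0.1 they gave -0.004, -0.028, -0.02, -0.07, -0.077, -0.045, -0.011, -0.039 and -0.068. A mean FPKM of at least 5 gave XRCC5 -0.014 and PRKDC -0.021, and single-gene rows gave PRKDC -0.003. Without 1 library, the ranges that crossed 0 were BRCA2 -0.02 to 0.173, XRCC5 -0.027 to 0.039, PRKDC -0.026 to 0.027, DDB2 -0.059 to 0.1, ERCC1 -0.045 to 0.119, PARP2 -0.006 to 0.127, OGG1 -0.006 to 0.348 and UNG -0.167 to 0.042.

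The replicate numbers did not pair the samples: deviations of same-numbered libraries correlated at -0.009, 0.06 and -0.05, and not every sample correlated best with its own number. With the replicate block, 3 repair genes were higher and 6 lower, and all rows gave 1250 higher and 672 lower. Counting depth limited RAD51C most, with 143 to 265 counts a library.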
